A study of Mus musculus with 16 samples.

Results

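Mouse bone marrow cells were grown into dendritic cells and then kept for 24 h with or without palmitic acid (PA), and 4 PA arrays are compared here with 4 mock arrays across 22180 genes, out of 16 arrays in the series. The arrays were taken by their titles, as mock-treated cells and as mock-treated cells with PA, and the genes are all those whose probe sets carried 1 symbol. All cells came from the marrow of male C57/B6 animals and were differentiated in GM-CSF (20 ng/ml) over 10 days, which gives the cell named GM-DC. PA was added at 0.5 mM, bound to albumin from bovine serum (6 mol of PA per mol of albumin). The other 8 arrays are GM-DC given IMQ alone (4 arrays) or IMQ together with PA (4 arrays), and they serve here only as a second setting for the fatty acid. PA and IMQ are read as palmitic acid and imiquimod, an agonist of the endosomal RNA receptor TLR7, from knowledge of the study. The IMQ dose stands as 3 uM in the design text and as 3 ug/ml in the protocol. Whether albumin was also added to mock wells is not stated in the labels, so PA and its carrier cannot be told apart. The replicates are labelled biological with no animal or culture named, and p-values therefore cover only the spread among these arrays. GM-DC cultures are mixed, and in such bulk RNA fewer cells of a type and less RNA per cell cannot be told apart.

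Palmitic acid is a saturated fatty acid that cells take up, activate to a coenzyme A ester, burn in mitochondria, store in lipid droplets or build into membranes. Free fatty acids activate the nuclear receptors of the PPAR family, which switch on genes of lipid transport and oxidation. A saturated load is also known to stress the endoplasmic reticulum (ER) and the supply of antioxidants, and to modulate inflammatory output in macrophages and dendritic cells.

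The values are log2 RMA values, a scale on which a difference of 1 is a doubling of signal, and they lay between 0.944 and 13.4. Correlations across genes between arrays were 0.994 to 0.995 within mock, 0.995 to 0.996 within PA and 0.993 to 0.995 between them, and 0 pairs were identical. Genes of odorant and other sensory receptors, most of them probably silent in GM-DC, gave a measure of background, and the 95th percentile of their means was 4.93. Macrophage and dendritic cell markers were well above it in all 8 arrays: Csf1r read 11.74 to 11.82, Lyz2 13.06 to 13.25, Itgax (CD11c) 10.88 to 11.12 and H2-Ab1, an MHC class II chain, 12.30 to 12.37. The dendritic cell growth factor receptor Flt3 was low, at 5.52 to 5.76, and Xcr1 and Itgae, markers of cross-presenting dendritic cells, lay below the background level. The T cell gene Cd3e and the B cell gene Cd79a also lay below it. Of 11 measured lymphocyte markers, 3 were above it in the mean of mock or PA.

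Few genes passed the threshold for PA versus mock, and most of those that did had small changes. In the limma fit over all 16 arrays, 331 genes passed an adjusted p of 0.05, which is 1.49% of the 22180 tested. Of these, 233 were higher with PA (1.05%) and 98 were lower (0.442%). The 4 PA values lay wholly outside the 4 mock values in 2201 genes (9.92%), among them 327 of the 331 called. A change of at least 0.5 was seen in 82 called genes and a change of at least 1 in 8. The median change of the 233 higher genes was 0.33 and that of the 98 lower genes was -0.44, against 0.01 over all genes. The 8 were Angptl4, Cpt1a, Plin2, Ppbp, Fos and the predicted locus Gm6116 on the higher side, and the sensory receptor genes Taar7d and Olfr1537 on the lower. The 2 receptor genes stayed below the background level in all groups, as did 38 of the 98 lower calls and 6 of the 233 higher calls. Of all 22180 genes, 8641 did so. With 1 array left out at a time the calls numbered 170 (without mock 2) to 346, and with only the 8 arrays without IMQ fitted they numbered 150.

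Genes that handle fatty acids led the rise. Angptl4, a secreted inhibitor of lipoprotein lipase, read 6.23, 6.15, 6.32 and 6.39 in mock and 8.74, 8.86, 8.84 and 8.77 with PA. All PA arrays were more than 2 above all mock arrays, a rise of 5.78-fold (log2 change 2.53, SE 0.13, limma adjusted p = 4.48e-08). Cpt1a, the carnitine transferase that lets long-chain fatty acids into mitochondria, read 8.87, 8.79, 8.93 and 8.97 in mock and 9.97, 9.94, 10.00 and 9.98 with PA. Its values did not overlap and it rose 2.11-fold (95% interval of the log2 change 0.96 to 1.20). Plin2, which coats lipid droplets, read 10.94, 10.97, 10.98 and 11.07 in mock and 12.02, 12.04, 12.04 and 11.99 with PA. The groups again stood apart, by 1.03 (SE 0.05). These 3 are the markers of fatty acid exposure, and each was highest in the PA arrays.

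Hilpda, a droplet protein that holds back triglyceride breakdown, read 7.10, 7.12, 7.07 and 6.91 in mock and 7.78, 7.84, 7.93 and 7.95 with PA, a change of 0.82 (SE 0.06). Cd36, the fatty acid transporter and scavenger receptor, had the tightest values of these genes: 11.06, 11.07, 11.06 and 11.05 in mock, 11.58, 11.59, 11.60 and 11.59 with PA. The change of Cd36 was 0.53 (SE 0.04, limma adjusted p = 2.35e-06), with no overlap. Of the 25 measured genes of the list of PPAR targets and fatty acid oxidation, 14 rose and 0 fell, with a median change of 0.32. The other called members were the carnitine carrier Slc25a20, the dehydrogenases Acadvl and Acadl, the thiolase Acaa2, the isomerase Eci2, the electron carriers Etfdh and Etfb, and the thioesterases Acot1 and Acot2. Pdk4, a widely used PPAR target, read 4.33 to 5.16 over the 8 arrays, at the background, and was not called (change 0.44, limma adjusted p = 0.0611). Aldh9a1, an aldehyde dehydrogenase of carnitine synthesis that was on no list, rose by 0.87 (SE 0.05), from 9.09 ± 0.07 (SD, n = 4) to 9.96 ± 0.05.

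Few genes of the peroxisomal, triglyceride and phospholipid lists were called. In the peroxisomal list 1 of 16 rose, the very-long-chain transporter Abcd2 (0.44, SE 0.07). In triglyceride and droplet turnover 2 of 21 rose. They were Pnpla2, the lipase that starts triglyceride breakdown (9.31 ± 0.02 in mock, 9.72 ± 0.04 with PA, SD, n = 4), and Dgat1, which makes triglyceride (0.33, SE 0.06). In sphingolipid and phospholipid synthesis 1 of 23 rose, Lpcat3, which places polyunsaturated chains into phospholipids. Lpcat3 read 9.93, 10.04, 10.08 and 9.98 in mock and 10.57, 10.63, 10.62 and 10.69 with PA, apart by 0.62 (SE 0.04, limma adjusted p = 1.92e-06). Lpcat3 is also known as a target of the sterol sensor LXR. Of 11 measured genes of the LXR and sterol efflux list 0 were called, with a median change of 0.00, and the part of LXR was not tested. Smpd5, a sphingomyelinase on no list, rose by 0.85 (SE 0.09), from 5.51, 5.75, 5.23 and 5.40 to 6.22, 6.30, 6.31 and 6.45. Its PA values lay above all mock values.

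**Figure D1:**
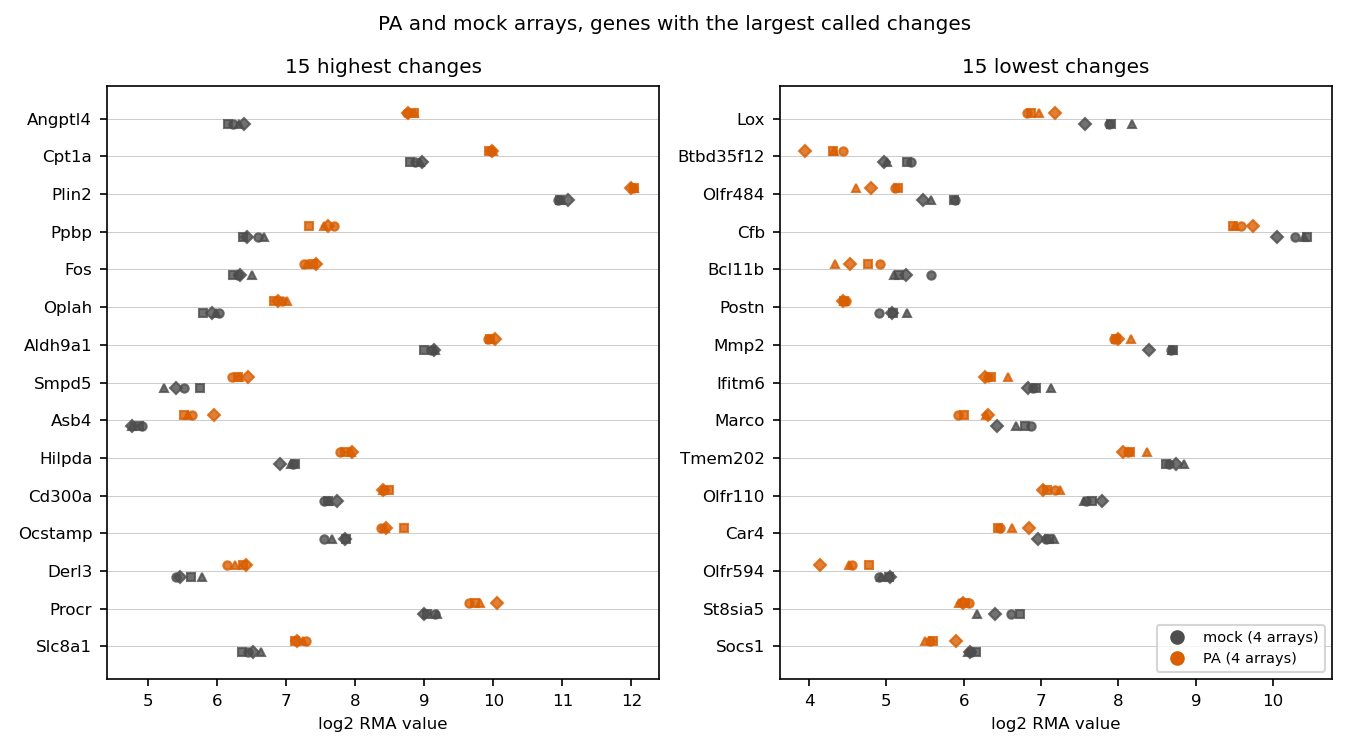
Log2 RMA values (x axis) of the 15 highest and the 15 lowest changes among named genes that were called, did not overlap between groups and stood above the background level. Each point is 1 array, grey for mock and orange for PA, and the shape gives the replicate number (circle 1, square 2, triangle 3, diamond 4). The gap of Angptl4 (2.53) is more than double that of any other gene shown.

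Genes of sterol synthesis and uptake rose together. Of 19 measured, 13 rose and 0 fell (median change 0.32, range of all members 0.06 to 0.66). Hsd17b7, a reductase of the late pathway, read 5.78, 5.54, 5.84 and 5.67 in mock and 6.40, 6.28, 6.35 and 6.45 with PA, with no overlap (0.66, SE 0.07, limma adjusted p = 8.18e-05). The demethylase Cyp51 rose by 0.52 (SE 0.07), farnesyl diphosphate synthase Fdps by 0.50 (SE 0.08) and squalene synthase Fdft1 by 0.46 (SE 0.05). The other 9 were Hmgcs1, Sqle, Insig1, Lss, Sc5d, Msmo1, Nsdhl, Stard4 and Tmem97. These genes are known targets of the factor SREBP2, which binds a sterol response element. The letters TCACNCCAC of that element, on either strand, were found in 243 of 16990 promoters (1.43%) and, among the called members, in 1 of 9 with a promoter in the table. That member was Hmgcs1, which makes the precursor of mevalonate and rose by 0.44, and its segment, 137 bases before the start site, is shown with the match in capitals (RefSeq, GRCm38.p6, chr13:119690194-119690242, plus strand).
Hmgcs1: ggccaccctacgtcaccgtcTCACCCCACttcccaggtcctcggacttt

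Fatty acid synthesis and desaturation had 5 of 16 members higher and 0 lower (median 0.20). They were the desaturases Fads2 (0.50, SE 0.08) and Scd1 (0.28, SE 0.06), malic enzyme Me1 (0.42, SE 0.10), acetyl-CoA synthetase Acss2 (0.34, SE 0.08) and the regulator Srebf1. The synthase Fasn was not called. With any 1 array left out, 1 to 3 of them were called.

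Amino acid, ER and antioxidant genes also rose, each in part. In the list of ATF4 targets and amino acid genes, which the integrated stress response controls, 9 of 24 rose and 0 fell (median 0.22). Asns, asparagine synthetase, read 7.14, 7.05, 7.15 and 6.91 in mock and 7.61, 7.52, 7.57 and 7.66 with PA, with no overlap (0.53, SE 0.06). The serine synthesis enzyme Psat1 rose by 0.45 (SE 0.06) and the amino acid transporters Slc7a1 and Slc7a5 by 0.42 (SE 0.07) and 0.41 (SE 0.08). The stress response genes Ddit3 (CHOP) and Trib3 were not called, with changes of 0.24 (limma adjusted p = 0.109) and 0.23 (limma adjusted p = 0.168). The letters TGATGNAA, part of the element that ATF4 binds, were found on either strand in 666 of 16990 promoters (3.92%). They stood in 2 of 8 called members with a promoter, Asns and Slc7a11, and in 5 of 13 members that were not called. The 2 segments are shown with the match in capitals and lie on the minus strand (RefSeq, GRCm38.p6), chr6:7693205-7693252, 23 bases before the start of Asns, and chr3:50443652-50443699, 66 bases before that of Slc7a11. A second match of Slc7a11, on the opposite strand and 47 bases before the start, falls in the same segment and is left in lower case.
Asns: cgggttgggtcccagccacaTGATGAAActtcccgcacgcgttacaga
Slc7a11: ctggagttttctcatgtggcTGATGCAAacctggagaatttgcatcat

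In ER folding and degradation 5 of 24 rose and 0 fell (median 0.10). Derl3, which helps to pull misfolded proteins out of the ER, read 5.40, 5.63, 5.78 and 5.46 in mock and 6.15, 6.37, 6.26 and 6.42 with PA, with no overlap (0.73, SE 0.12, limma adjusted p = 0.00352). The co-chaperone Dnajb9 rose by 0.40 (SE 0.06), Creld2 by 0.29 (SE 0.05), Hyou1 by 0.25 (SE 0.05), and Derl1 was called too. The chaperone Hspa5 (BiP) was not called (0.20, limma adjusted p = 0.132). The ER stress element, taken here as CCAAT, 9 bases of any kind and CCACG on either strand, was found in 29 of 16990 promoters (0.171%). It stood in 2 of 3 called members with a promoter, Creld2 and Derl3, and in 7 of 17 members that were not called, Hspa5 among them. Both matches read on the strand opposite to the gene and are shown in capitals on the gene's own plus strand (RefSeq, GRCm38.p6), at chr15:88819500-88819558 and chr10:75893222-75893280.
Creld2: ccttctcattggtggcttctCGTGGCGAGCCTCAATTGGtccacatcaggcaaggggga
Derl3: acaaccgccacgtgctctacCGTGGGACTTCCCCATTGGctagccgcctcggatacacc

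Of the NRF2 targets, which make glutathione and NADPH and detoxify oxidants, 7 of 15 rose and 0 fell (median 0.27). Glutathione reductase Gsr rose by 0.36 (SE 0.05), the glutathione synthesis gene Gclc by 0.35 (SE 0.06) and the cystine carrier Slc7a11 by 0.35 (SE 0.05), and Me1, Gclm, Srxn1 and Taldo1 were also called. Hmox1, Nqo1 and Txnrd1 were not. Oplah, which recycles oxoproline in the glutathione cycle and was on no list, rose more than any of these. It read 6.02, 5.79, 5.99 and 5.93 in mock and 6.94, 6.83, 7.02 and 6.88 with PA, a rise of 1.98-fold with no overlap (log2 change 0.98, SE 0.08, limma adjusted p = 5.20e-06). The NRF2 element letters TGACNNNGC are common, in 14.9% of promoters, and were found in 40 of 174 called higher genes with a promoter (23%) and 14 of 70 called lower (20.0%). A pair of AGGTCA copies with 1 base between, which PPAR binds, was found in 11 of 16990 promoters (0.0647%) and in 0 of the 174. Only exact copies were counted, and at so low a share 0 of 174 is not informative. A match says only that the letters are there. With only the 8 arrays without IMQ fitted, the calls numbered 9 in the PPAR and oxidation list, 10 in sterol synthesis, 1 in fatty acid synthesis, 5 in the ATF4 list, 2 in ER folding and 4 in the NRF2 list. In that fit the calls of Dgat1, Me1, Acss2, Scd1, Slc7a5, Creld2, Hyou1 and Slc7a11 were lost, and Slc7a11 also lost its call when its probe sets were averaged (change 0.18).

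**Figure D2:**
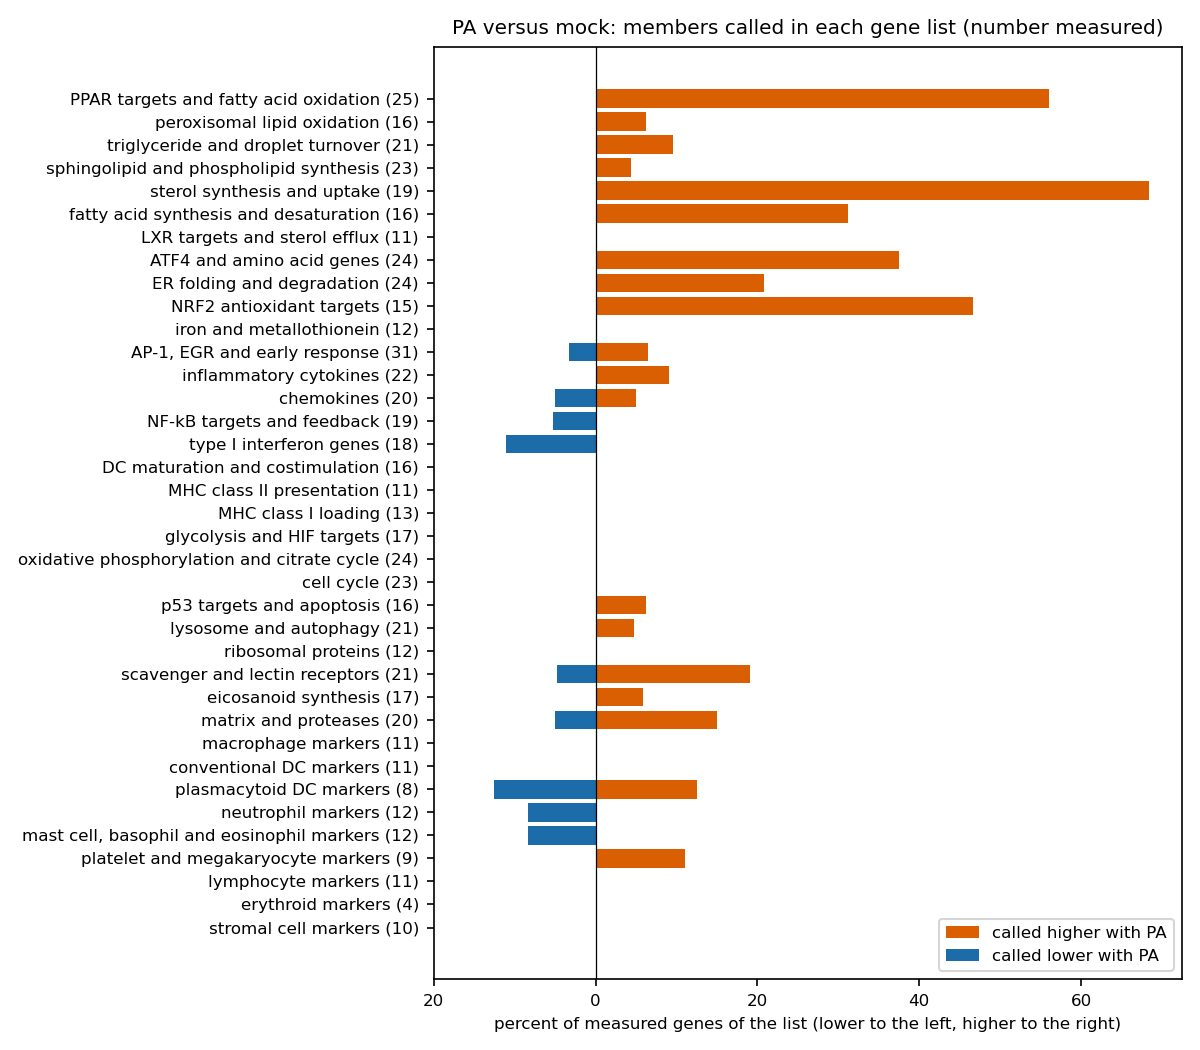
Share of the measured genes of each of 37 lists that were called higher (orange, to the right) or lower (blue, to the left) with PA, in percent, with the number measured in parentheses. Sterol synthesis (13 of 19), PPAR targets and fatty acid oxidation (14 of 25) and NRF2 targets (7 of 15) had the longest bars, and cell cycle, glycolysis, MHC and ribosomal lists had none. Of all genes, 1.49% were called.

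Beyond lipid and stress genes, the largest rises were scattered over genes of varied function. Ppbp, a platelet chemokine that macrophages can also make, read 6.60, 6.37, 6.68 and 6.43 in mock and 7.69, 7.33, 7.55 and 7.60 with PA. The groups did not overlap and Ppbp rose 2.04-fold (log2 change 1.03, SE 0.12, limma adjusted p = 0.000259). It was the only one of 9 platelet and megakaryocyte markers called. The mean level of that list was 5.86 to 5.93 in mock and 5.88 to 5.98 with PA. Of the 9, 6 were above the background level in a group, while Gp5 lay below it. Pf4, the neighbouring platelet chemokine, was 9.27 to 9.42 in all 8 arrays with a change of 0.05.

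Fos, a subunit of the factor AP-1, read 6.30, 6.23, 6.50 and 6.33 in mock and 7.25, 7.39, 7.30 and 7.43 with PA, a gap without overlap of 1.00 (SE 0.07, limma adjusted p = 2.35e-06). Its partner Jun, with 9.91, 9.92, 9.92 and 10.03 in mock and 9.78, 9.67, 9.66 and 9.62 with PA, fell by 0.26 (SE 0.06, limma adjusted p = 0.0300). Of the 31 genes of the AP-1 and early response list, only these and the phosphatase Dusp1 (0.27, SE 0.06) were called, and the list median was 0.02. The calls of Jun and Dusp1 were lost with the array medians set equal and with the 8 arrays alone, and that of Fos was not.

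Several surface and membrane proteins rose. Cd300a, an inhibitory receptor of myeloid cells, read 7.54, 7.61, 7.62 and 7.73 in mock and 8.42, 8.49, 8.41 and 8.40 with PA, with no overlap (0.80, SE 0.08). Ocstamp, a membrane protein needed for the fusion of osteoclast precursors, rose by 0.75 (SE 0.13). Procr, the endothelial protein C receptor, rose by 0.71 (SE 0.08), from 9.16, 9.03, 9.19 and 9.0 to 9.64, 9.73, 9.80 and 10.05. Slc8a1, a sodium-calcium exchanger, rose by 0.71 (SE 0.08) and Asb4, a substrate adaptor of ubiquitin ligases, by 0.85 (SE 0.14). Asb4 started from 4.83 ± 0.07 (SD, n = 4), just under the background level, so its change may be understated.

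Scavenger receptors moved both ways, with 4 of 21 higher and 1 lower. Besides Cd36, these were Scarb2, a lysosomal receptor (0.39, SE 0.04), the lipoprotein receptor Scarb1 (0.29, SE 0.05) and the oxidised LDL receptor Olr1 (0.21, SE 0.05). Marco, which binds bacteria and particles, read 6.87, 6.79, 6.67 and 6.43 in mock and 5.93, 6.01, 6.29 and 6.31 with PA, and fell by 0.56 (SE 0.10, limma adjusted p = 0.00840). The groups were close at mock 4 but did not overlap. Single members rose in other lists: the autophagy receptor Sqstm1 (0.23, SE 0.04), the cell cycle inhibitor Cdkn1a (0.18, SE 0.04) and the phospholipase Pla2g4a (0.22, SE 0.05). The calls of Olr1, Pla2g4a and Cdkn1a were lost with the array medians set equal, and these and that of Sqstm1 with the 8 arrays alone.

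Many programmes showed no called member. These were cell cycle (0 of 23), glycolysis and HIF targets (0 of 17), oxidative phosphorylation and the citrate cycle (0 of 24), MHC class II (0 of 11), MHC class I loading (0 of 13), dendritic cell maturation (0 of 16), iron and metallothionein genes (0 of 12) and ribosomal proteins (0 of 12). Apart from the iron list, whose member Lcn2 is described with the inflammatory genes, the lowest change in these lists was -0.23 (in dendritic cell maturation) and the highest 0.20. Over all genes 1.49% were called, and at that share lists of this size would hold few called genes or none. A missed threshold with 4 arrays a group does not show equality.

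Among the lower genes were a few that encode secreted proteins, although the matrix and protease list had 3 members higher and 1 lower. Lox, an oxidase that cross-links collagen, read 7.88, 7.91, 8.17 and 7.56 in mock and 6.82, 6.87, 6.97 and 7.17 with PA. Mock 4 was the lowest of its group and PA 4 the highest, and the groups did not overlap (change -0.92, SE 0.10, limma adjusted p = 0.000194). Cfb, a factor of the alternative complement pathway, read 10.28, 10.44, 10.40 and 10.05 in mock and 9.58, 9.48, 9.51 and 9.74 with PA, without overlap, and fell by 0.71 (SE 0.08). Mmp2, a gelatinase, read 8.68, 8.71, 8.69 and 8.40 in mock and 7.94, 7.97, 8.16 and 7.99 with PA, and fell by 0.60 (SE 0.07). The acute-phase gene Saa3 read 12.46, 12.56, 12.51 and 11.88 in mock and 11.55, 11.49, 11.77 and 11.95 with PA. Here mock 4 lay among the PA arrays, although the change of -0.66 passed the test (SE 0.13, limma adjusted p = 0.0148), and the call was lost without mock 1 or without mock 2.

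Other lower genes were regulators and surface proteins of immune cells. Socs1, an inhibitor of cytokine signalling, read 6.10, 6.16, 6.05 and 6.08 in mock and 5.56, 5.60, 5.50 and 5.90 with PA, and fell by 0.46 (SE 0.08). The carbonic anhydrase Car4 fell by 0.48 (SE 0.08) and Ifitm6, of an interferon-induced membrane family, by 0.57 (SE 0.08). Ccl17, a chemokine that dendritic cells make to draw T cells, had a narrow spread, with 9.67, 9.66, 9.68 and 9.76 in mock and 9.29, 9.23, 9.32 and 9.27 with PA. It fell by 0.42 (SE 0.04, limma adjusted p = 7.90e-05), with no overlap. Of 18 type I interferon genes 0 rose and 2 fell, the regulator Irf7 (-0.31, SE 0.06) and the tethering protein Bst2 (-0.27, SE 0.06). Matrix and protease genes were split, since Lox fell while Thbs1 (0.30, SE 0.07), Mmp13 (0.22, SE 0.05) and Mmp19 (0.21, SE 0.05) rose. The calls of Marco, Socs1, Car4, Saa3, Irf7, Bst2, Thbs1, Mmp13 and Mmp19 were lost when only the 8 arrays without IMQ were fitted, and those of Lox, Cfb, Mmp2, Ifitm6 and Ccl17 were not.

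The rest of the 15 lowest changes were in genes of mixed kind and level. Btbd35f12 and the odorant receptor genes Olfr484, Olfr110 and Olfr594 were among them. Olfr110 stood at 7.64 in mock, well above the background level of 4.93. Olfr484 read 5.88, 5.88, 5.58 and 5.47 in mock and 5.11, 5.14, 4.61 and 4.80 with PA, around that level. Sensory receptor genes made up 11 of the 98 lower calls and 1443 of all 22180 genes. Periostin (Postn) fell from 5.08 ± 0.15 to 4.46 ± 0.02 (SD, n = 4) and Bcl11b, a T cell factor, from 5.27 ± 0.22 to 4.64 ± 0.26. Tmem202 (-0.54, SE 0.11) and the sialyltransferase St8sia5 (-0.47, SE 0.10), with mock means of 8.71 and 6.48, were also among the 15. Of these 8 genes, all but Btbd35f12 lost the call when some single array was left out.

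Few markers of other cells were called, but the means of 3 marker lists were lower in all PA arrays than in all mock arrays. Those of the macrophage, plasmacytoid, mast cell, platelet, lymphocyte and erythroid lists overlapped. Such gaps were not particular to markers. The mean of MHC class I loading was also lower (9.77 to 9.83 in mock, 9.74 to 9.76 with PA). Means of other lists were higher, such as that of the AP-1 list (7.43 to 7.50 and 7.51 to 7.56). Of 12 neutrophil markers 7 were above the background level in a group and 1 fell, the receptor Csf3r (8.45, 8.47, 8.41 and 8.40 in mock and 8.25, 8.18, 8.29 and 8.19 with PA). The mean of the 12 was 5.70 to 5.76 in mock and 5.52 to 5.58 with PA, so the groups did not overlap, while the defining gene Ly6g lay below background in all groups. The mean of the 10 stromal markers was 5.1875 to 5.2494 in mock and 5.092 to 5.1821 with PA, so that the groups nearly touched. Of the 10, 7 were above background in a group, and Cxcl12 and Lum were below it. That of the 11 conventional dendritic cell markers was 6.83 to 6.91 in mock and 6.77 to 6.81 with PA, with 8 above background. The part of these cells in the changes of Lox, Mmp2, Postn and the other lower genes was not tested. The calls of Csf3r and Siglecf were lost with the array medians set equal, and these and that of Cox6a2 with the 8 arrays alone. In the mast cell, basophil and eosinophil list Siglecf fell (-0.29, SE 0.06) and the list mean overlapped, at 4.31 to 4.48 in mock and 4.35 to 4.54 with PA. In the plasmacytoid list Cox6a2 rose (0.56, SE 0.09) and Bst2 fell. Of its 8 members 4 were above background in a group, whereas Siglech lay below it. Of the macrophage (11), conventional dendritic cell (11), lymphocyte (11), stromal (10) and erythroid (4) markers 0 were called, against 1.49% of all genes. The conventional dendritic cell list had a median of -0.12 and Itgax a change of -0.18 (limma adjusted p = 0.0563).

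The mock arrays did not share 1 inflammatory state. Cxcl3, a neutrophil chemokine, read 8.66, 9.15 and 9.10 in mock 1 to 3 and 4.40 in mock 4, and 5.84, 6.24, 8.32 and 9.21 in PA 1 to 4. Ptgs2, the inducible cyclooxygenase, read 8.49, 8.95, 8.84 and 5.30 in mock and 5.94, 5.81, 9.16 and 10.02 with PA. U90926, which had the widest mock range of all (5.63), read 9.53, 10.09, 9.91 and 4.46 in mock and 4.59, 4.53, 8.90 and 9.77 with PA. In each case mock 4, PA 1 and PA 2 were low, and mock 1 to 3, PA 3 and PA 4 were high. The mean of 12 inflammatory genes, used here as a level of each array, was 9.02, 9.28, 9.19 and 7.18 in mock and 7.56, 7.51, 8.81 and 9.32 with PA, against 12.1 with IMQ and 12.3 with IMQ and PA.

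In 14 genes mock 4 lay more than 1 below the other mock arrays, and in 0 genes more than 1 above. They were Cxcl1, Cxcl2, Cxcl3, Dgat2, Hdc, Ifi205, Il12a, Il1a, Il1b, Il6, Lcn2, Nos2, Ptgs2 and U90926. In 11 of the 14, PA 1 and PA 2 were below PA 3 and PA 4, and in all 14 the IMQ mean exceeded every mock array. The shares of all genes with these patterns were not counted. For PA versus mock 0 of the 14 were called, against 1.49% of all genes. Among 13539 genes above background, a range over 1 was seen in 42 within mock (0.31%), 29 within PA (0.214%), 12 within IMQ (0.0886%) and 16 within IMQ and PA (0.118%). Small RNAs showed the opposite order, with a median over 77 genes of 8.69 to 8.91 in mock 4, PA 1 and PA 2 and 8.34 to 8.61 in the other 5 arrays. The Y RNA gene Rny1 read 9.82, 9.30, 9.76 and 10.7 in mock and 10.3, 10.0, 9.62 and 9.57 with PA, highest in the arrays that were low in inflammatory genes, and the part of RNA quality or of small RNAs in these differences was not tested.

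**Figure D3:**
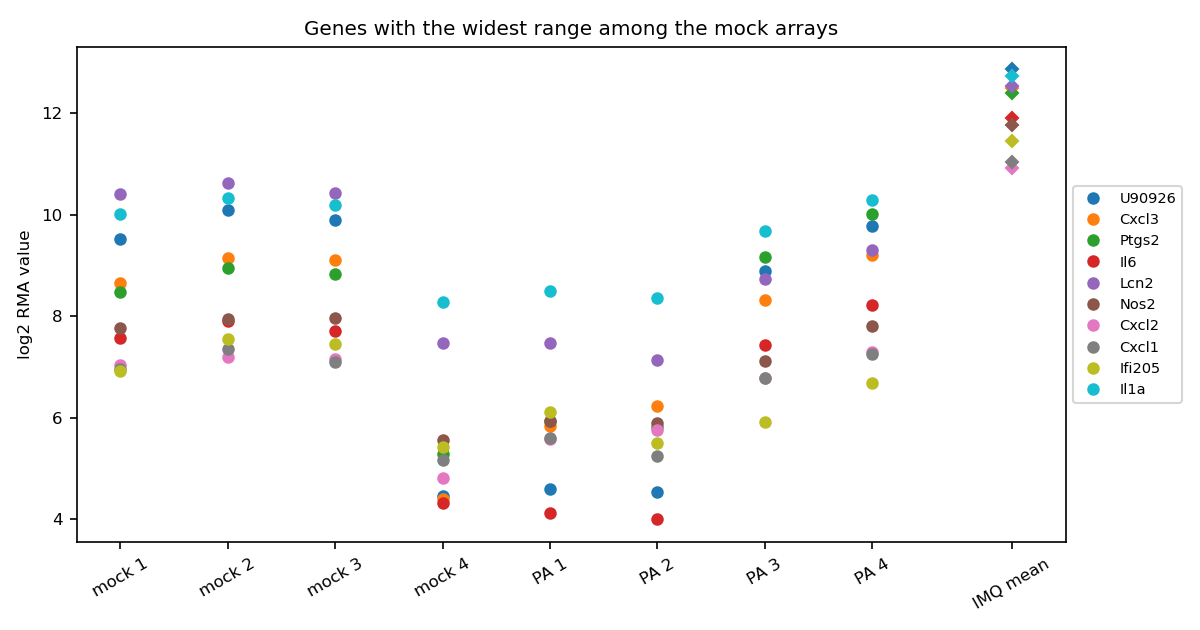
Log2 RMA values (y axis) of the 10 genes with the widest range among mock arrays, 1 point per gene in each of the 4 mock and 4 PA arrays, with the mean of the 4 IMQ arrays as a diamond. Mock 4, PA 1 and PA 2 lie low in nearly all 10, and every diamond lies above every mock point of its gene.

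The intervals of these genes were wide, and they still understate the spread among the mock and PA arrays. The fit pooled the spread of each gene over all groups, and the arrays with IMQ varied little in these genes. Il6 had an SD of 1.71 in mock and 2.20 with PA, but read 11.855 to 12.02 in the IMQ arrays. Cxcl3 had SDs of 2.30 and 1.62, and read 12.411 to 12.55 in the IMQ arrays. The intervals of Tnf and Il12b given below come from the same fit. The change of Il6 was -0.93 with a 95% interval of -2.81 to 0.95, that of Cxcl3 -0.43 with -2.33 to 1.47, and that of Ptgs2 -0.16 with -2.05 to 1.72, so the intervals hold changes in either direction. Lcn2, a siderophore-binding acute-phase protein, read 10.40, 10.62, 10.44 and 7.47 in mock and 7.47, 7.14, 8.74 and 9.32 with PA, and its change of -1.56 did not pass (limma adjusted p = 0.223). Tnf and Il12b had narrower intervals. Tnf read 8.36, 8.51, 8.55 and 8.17 in mock and 8.50, 8.52, 8.60 and 8.73 with PA (0.19, interval 0.02 to 0.36, limma adjusted p = 0.282). Il12b, a gene of the inflammatory level, read 8.49, 8.68, 8.67 and 8.03 in mock and 8.31, 8.28, 8.56 and 8.67 with PA. Its means differed by -0.01 (interval -0.27 to 0.24), with mock 4, PA 1 and PA 2 again lowest. Il23a (4.50 ± 0.18 and 4.49 ± 0.15, SD, n = 4) and Il10 (4.08 ± 0.27 and 3.97 ± 0.17) were at background in both groups.

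Of the 22 inflammatory cytokines 2 were called, both higher. Il1f9 (IL-36 gamma) read 7.52, 7.56, 7.72 and 7.49 in mock and 8.07, 8.17, 8.12 and 8.24 with PA, with no overlap (0.58, SE 0.07, limma adjusted p = 0.000235). Il1rn, the receptor antagonist of interleukin 1, rose by 0.28 (SE 0.05), from 9.86 ± 0.05 to 10.14 ± 0.07 (SD, n = 4). In neither gene did mock 4 stand apart, and the call of Il1rn was lost with the 8 arrays alone. Of 20 chemokines Ppbp rose and Ccl17 fell, with a list median of -0.19, and of 19 NF-kB target and feedback genes Saa3 fell.

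Called genes were also set out among arrays of like inflammatory level, as PA 3 and 4 against mock 1 to 3 and as PA 1 and 2 against mock 4. The 2 differences were 2.57 and 2.41 for Angptl4, 1.13 and 0.98 for Cpt1a, 1.02 and 0.99 for Fos, and -0.91 and -0.72 for Lox. The sign is fixed where groups do not overlap, so only sizes are informative here, and the second difference rests on a single mock array. Sizes differed, for example, in Me1 (0.57 and 0.08), Bst2 (-0.37 and -0.06) and Olfr484 (-1.08 and -0.34). With the inflammatory level as a covariate 339 genes were called, 291 of them shared with the 331, the calls of Me1, Scd1, Bst2 and Csf3r were lost, and Tnf became called (0.24, limma adjusted p = 0.0459). Without the 5 arrays that were high in inflammatory genes, 15 genes were called.

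**Figure D4:**
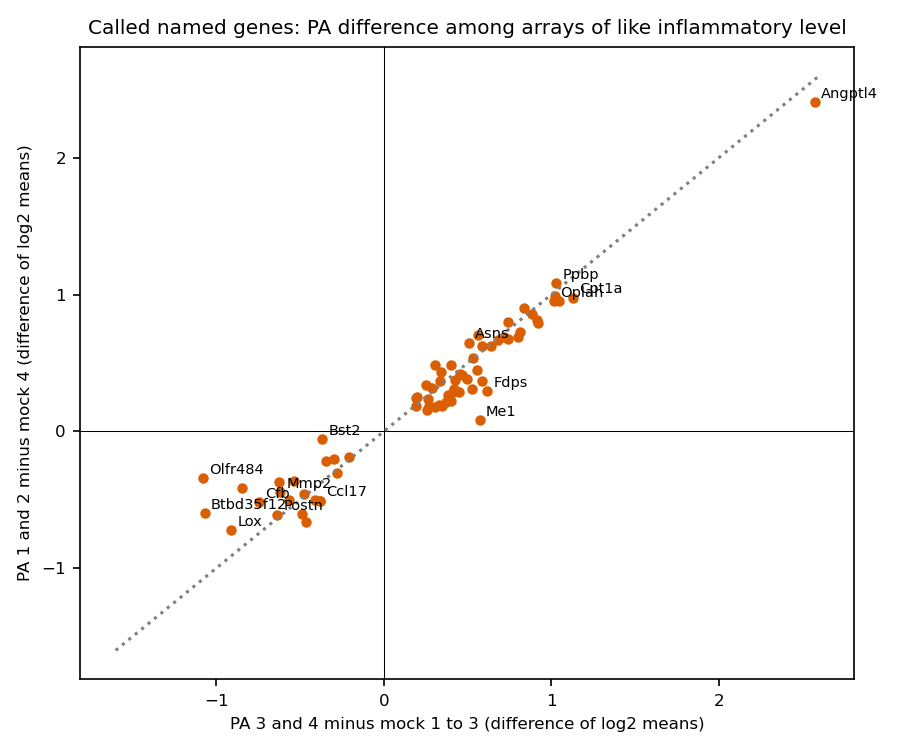
Difference of log2 means between PA 3 and 4 and mock 1 to 3 (x axis) against that between PA 1 and 2 and mock 4 (y axis), 1 point for each of 72 called named genes. The dotted line marks equal differences. Saa3 is left out because it is part of the inflammatory level. Most points lie near the line, and Me1, Bst2, Olfr484 and Btbd35f12 (-1.07 and -0.60) lie away from it.

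The same fatty acid was given to cells with IMQ, and those 8 arrays share none with the 8 above. Of the 233 genes raised by PA alone, 130 (55.8%) were also higher with IMQ, where 11.6% of all genes were called higher, and 38 (16.3%) were lower, where 9.44% of all genes were called lower. Of the 98 lower genes, 23 (23.5%) were lower and 3 (3.06%) higher with IMQ. The interaction, the PA change in IMQ cells minus that in mock cells, was called for 142 of the 233 (60.9%) and 52 of the 98 (53.1%), against 13.6% of all genes. The median change of the 233 was 0.33 alone and 0.23 with IMQ, and that of the 98 was -0.44 and -0.09. Of the 98, 60 were above background in a group. Among these 60, 20 (33.3%) were lower and 3 (5%) higher with IMQ, and the interaction was called for 27 (45%). Their median change was -0.42 alone and -0.14 with IMQ. The genes were selected for their change alone, which favours a smaller value in any second setting.

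The genes raised by PA alone differed in how they changed with IMQ. The interaction was not called for Cpt1a, Plin2, Oplah, Aldh9a1, Cyp51 and Fdps. Cpt1a changed by 1.08 alone and 0.98 with IMQ (interaction -0.10, SE 0.08, limma adjusted p = 0.466), Plin2 by 1.03 and 0.85 (interaction -0.18, SE 0.07), Oplah by 0.98 and 1.00 (interaction 0.02, SE 0.11), and Aldh9a1 by 0.87 and 1.01. Cyp51 (0.52 and 0.51) and Fdps (0.50 and 0.54) had like pairs of changes. Other lipid genes had called interactions, in both directions. Cd36 changed by 0.53 and 0.94 (interaction 0.41, SE 0.06), Lpcat3 by 0.62 and 0.23 (-0.39, SE 0.06), and Hsd17b7 by 0.66 and 0.26 (-0.41, SE 0.10). Angptl4 differed more, with 2.53 alone and 0.77 with IMQ (interaction -1.76, SE 0.19, limma adjusted p = 7.72e-06).

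Derl3, Fos, Hilpda and Creld2 changed more with IMQ than without it. Derl3 changed by 0.73 alone and 3.05 with IMQ (interaction 2.31, SE 0.16), Fos by 1.00 and 3.40 (2.39, SE 0.10), Hilpda by 0.82 and 2.44 (1.62, SE 0.08) and Creld2 by 0.29 and 1.68 (1.39, SE 0.07). Not all genes of these kinds did so, since Jun changed by -0.26 alone and was not called with IMQ (0.11), and Pnpla2 changed by 0.41 alone and -0.09 with IMQ (interaction -0.50, SE 0.06). Mmp19, barely raised alone (0.21), changed by 3.00 with IMQ (interaction 2.79, SE 0.07). Ppbp (1.03 and -0.02) and Slc8a1 (0.71 and -0.03) rose only without IMQ, with interactions of -1.05 (SE 0.17) and -0.74 (SE 0.12) that both passed.

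Some genes raised by PA alone were lowered by it in IMQ-treated cells. Asns changed by 0.53 alone and by -0.90 with IMQ, where its level before PA was higher (9.69 against 7.06 in mock; interaction -1.43, SE 0.08). Cox6a2 changed by 0.56 and -0.87, Abcd2 by 0.44 and -0.70, Scd1 by 0.28 and -0.70, Scarb1 by 0.29 and -0.30, and Slc7a5 by 0.41 and -0.35. All of these passed the test in both settings and for the interaction. Olfr110 went the other way (-0.51 and 0.44), falling from 7.64 to 7.13 alone and reading 4.73 with IMQ, near background.

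Lox, Mmp2, Cfb, Marco and Socs1 had higher mean levels with IMQ than in mock, while Ifitm6 (6.14 and 6.95) and Postn (3.79 and 5.08) had lower ones. Lox had a mean of 11.01 with IMQ and 7.88 in mock, and PA changed it by -0.88 there and -0.92 here (interaction 0.04, SE 0.15). Mmp2 had means of 10.88 and 8.62 and changes of -1.53 and -0.60 (interaction -0.92, SE 0.10), Cfb means of 12.48 and 10.29 and changes of -0.47 and -0.71, Marco means of 9.73 and 6.69 and changes of -0.53 and -0.56, and Socs1 means of 8.98 and 6.10 and changes of -0.35 and -0.46. Each passed in both settings. Ccl17 and Postn fell alone but were not called with IMQ (0.05 and 0.25), and their interactions, 0.47 (SE 0.06) and 0.87 (SE 0.18), were called. Csf3r changed by -0.21 alone and -1.85 with IMQ (interaction -1.64, SE 0.07).

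**Figure D5:**
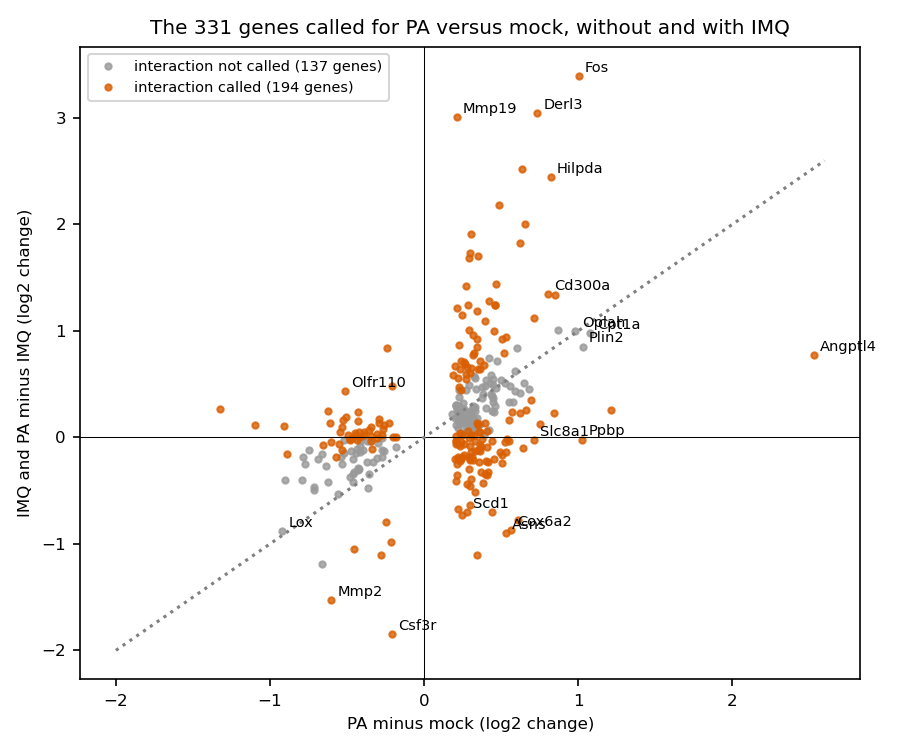
Log2 change with PA alone (x axis) and with PA added to IMQ (y axis) for the 331 genes called for PA versus mock, 1 point per gene. Orange marks the 194 genes whose interaction was called and grey the 137 whose interaction was not, and the dotted line marks equal changes. Cpt1a, Plin2 and Lox lie near the line, Fos, Derl3 and Mmp19 far above it, and Angptl4 and Asns below it.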

How the data were processed

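RNA (200 ng per sample) of the 16 samples was hybridised to 1-colour Affymetrix whole-transcript arrays (labels' protocols). Values were deposited on the log2 scale by the authors, and RMA and affy are the tools in the submitters' processing notes, with no versions. RMA corrects background, normalises by quantiles and summarises probes, so small shifts shared by all genes are removed. The genome build was not given in the sources used here. An array has no read depth, and the number of arrays limits precision.

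Of 41345 probe sets, 23521 carried 1 symbol, 1814 several and 16010 none in the platform table. The last 2 kinds were not used. Symbols were checked against RefSeq (GRCm38.p6, 23328 found, 193 not), and the probe set with the highest mean stood for the 1082 genes with several, leaving 22180 genes. Group means of all 16 arrays were fitted with limma 3.58.1 in R 4.3.3 (eBayes, 12 residual and 2.96 prior degrees of freedom, two-sided tests), with p-values adjusted by Benjamini-Hochberg over the 22180 genes at 0.05. The interval is 95%.

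The comparison, the 37 gene lists (662 genes, 600 measured) and the rule for naming genes were chosen with earlier results of these data known. The rule took the 15 highest and 15 lowest called changes without overlap and above background, leaving out unnamed loci, at most 4 called genes per list and direction, preset inflammatory genes and the 10 widest mock ranges. Other names were chosen after their values were seen. Promoters (250 bases before to 50 after the start) were in the RefSeq table for 16990 genes. The fit was tested on simulated data. Alternatives covered the arrays fitted, normalisation, variance model, replicate block, dim genes, probe sets, inflammatory level and single arrays. Deviations of same-numbered mock and PA arrays correlated at -0.017, -0.00523, 0.0587 and -0.118, so the numbers were not used as pairs.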

Additional observations from a re-analysis of the deposited data

Results flagged for a closer look

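Among 174 groups of 4 arrays, 1 array stood apart from the rest of its group in 13. Chance gives about 1 such group in 20, but Il6, Il1a, Cxcl2, Cxcl3, Ptgs2 and Nos2 were also among the widest mock ranges and were chosen with their spread known, so that share is no yardstick for them. Mock 4 was the array in 11 of them. It read 4.324 for Il6, 9.398 for Il1b, 8.283 for Il1a, 4.818 for Cxcl2, 4.397 for Cxcl3, 5.295 for Ptgs2, 5.568 for Nos2, 11.88 for Saa3 and 8.396 for Mmp2, each below the other mock arrays. Jun was above them at 10.03, and the inflammatory level of mock 4 was 7.177 against 9.015 to 9.283. Mock 1 was low for Sqstm1 at 10.74, and mock 3 was high for Siglecf at 8.02.

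The PA change differed between cells with and without IMQ, by limma's interaction test, for 17 of the 30 named genes with the highest and lowest changes, against 13.6% of all genes. These genes were chosen on the change without IMQ, which enters the difference. The difference, with IMQ minus without, was positive for Fos (2.39), Derl3 (2.31), Hilpda (1.62), Olfr110 (0.95), Postn (0.87), Btbd35f12 (0.73), Cd300a (0.54), Smpd5 (0.49), Olfr594 (0.45), Procr (0.40) and Ifitm6 (0.39). It was negative for Angptl4 (-1.76), Ppbp (-1.05), Mmp2 (-0.92), Slc8a1 (-0.74), Ocstamp (-0.62) and Asb4 (-0.62). Some of these genes were below the background level of 4.93 with IMQ and with IMQ and PA, where changes can be flattened. They were Postn (3.79 and 4.03), Btbd35f12 (4.54 and 4.38), Olfr594 (4.63 and 4.61) and Asb4 (4.30 and 4.53). Angptl4 was near that level with IMQ alone (5.15).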

How the results depend on the processing

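The number of genes called, 331 (233 higher, 98 lower), moved with the fit. None turned sign in the alternatives that fitted them, but in 327 the groups do not overlap, which fixes the sign when arrays are left out. The number was 150 (108 higher, 42 lower) with only the 8 arrays without IMQ, 737 (548 and 189) with an intensity trend and robust variances, and 531 (409 and 122) with dim genes left out before adjustment. Array medians set equal gave 254 calls with 59 lower. Without the 3 arrays low in inflammatory genes there were 130 (91 and 39), and without the 5 high ones 15 (12 and 3). Leaving out 1 array at a time gave 170 to 346 calls, 129 to 253 higher and 41 to 93 lower. The lowest counts came without mock 2 (170), PA 4 (192), mock 1 (201) and PA 3 (220). Repeated quantile normalisation, averaged probe sets, the inflammatory covariate and the replicate block stayed within 1.5 times, and the counts with IMQ and for the interaction did so in every alternative run. The replicate number as a block gave 259 calls, 241 of them shared. Over all alternatives, calls ranged from 4 to 16 in the PPAR and oxidation list, 0 to 15 in sterol synthesis, 0 to 13 in fatty acid synthesis, 0 to 12 in the ATF4 and NRF2 lists and 0 to 9 in ER folding, with each lowest count in the set without the 5 high arrays.

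Of 73 named genes that were called, 10 stayed called in every alternative (Angptl4, Cpt1a, Plin2, Fos, Aldh9a1, Smpd5, Hilpda, Procr, Lox and Lpcat3) and 47 in every omission of a single array. Cxcl2 and Cxcl3, not called and negative, turned to called rises of 0.86 (limma adjusted p = 0.0110) and 1.64 (limma adjusted p = 0.00982) without the 5 high arrays. Those genes define the split, the mock side is then 1 array whose spread is borrowed from the other groups, and the cause was not tested. Another 41 turns of sign were in values called in neither fit.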
